A study of Homo sapiens with 6 samples.

Results

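KAT8 and the MSL genes MSL1, MSL2 and MSL3 encode the 4 subunits of the human MSL complex, and they were taken by name from a table of 58721 genes. All 4 were found and all 4 passed the filter on low counts, among 20713 genes tested. RNA was sequenced from A549, an established human lung cancer cell line grown in serum-containing medium, as polyadenylated RNA. Per the labels, the cells of 3 libraries overexpressed KAT8 carrying R98W, a substitution of the arginine at residue 98, and 3 libraries are labelled as overexpressing wild-type KAT8 (WT), of which 1 had a low KAT8 level. Overexpression is thus labelled in both groups, and libraries without overexpression were not analysed here. The labels give neither the promoter that drives the introduced gene, nor whether the cells were pools or clones, nor whether replicates came from separate cultures, so the spread behind every p-value here is that between libraries and could be technical alone.

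KAT8, also called MOF, is a lysine acetyltransferase of the MYST family that places the acetyl mark H4K16ac on histone H4. It works in the MSL complex and, with other partners, in the NSL complex. In MSL, MSL1 is the scaffold that binds the other subunits, MSL2 is a RING-type ubiquitin ligase, and MSL3 reads chromatin through a chromo barrel and an MRG domain. The complex was first described in Drosophila, where it raises transcription from the single X chromosome of males together with the helicase MLE and the roX RNAs.

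Arginine 98 lies in the chromo barrel of KAT8, the domain that the series title calls a Tudor-knot. The stretch of coding sequence around it is shown because it is the position that sets the R98W group apart, and counts per gene cannot tell which base a read carried there. The capitals mark codon 98, counted from the start codon, with 30 bases on each side, in the principal KAT8 transcript of GENCODE release 29.

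KAT8 codon 98: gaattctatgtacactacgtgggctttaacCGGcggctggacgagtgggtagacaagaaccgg

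The codon lies on the plus strand at chr16:31120344-31120346 (hg38), in exon 3 of 11. The first 25 of the 63 bases shown come from exon 2, so the stretch crosses a splice junction. The codon and its flanks were the same in every KAT8 transcript annotated with a start codon.

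The libraries held 101792328 to 108742650 counts in the R98W group and 90007121 to 110152936 counts in the WT group. The line's identity was checked with marker genes. The 8 epithelial and A549-typical markers (KRT8, KRT18, KRT19, EPCAM, CDH1, ALDH1A1, AKR1C1 and NQO1) all averaged over 1 CPM. Their summed level was 21800 to 24200 CPM in R98W and 24200 to 24800 CPM in WT. Of the 8, 1 was higher and 2 were lower in R98W at an edgeR adjusted p under 0.05. That share of 37.5% stands beside 34.8% over all tested genes. These were KRT19, higher, and EPCAM and ALDH1A1, lower, at log2 fold changes of 0.48, -0.86 and -0.20. CDKN2A, which is deleted in A549, had 0 counts in all 6 libraries. Of the 10 markers of other cell types, COL1A1 and CD14 averaged over 1 CPM, CD3E was at 0, and the summed fibroblast level was 11.7 to 12.8 CPM in R98W and 10.1 to 14.2 CPM in WT. The summed immune level was 6.01 to 8.68 CPM in R98W and 7.22 to 8.24 CPM in WT, and the summed endothelial level was 0.214 to 0.362 CPM in R98W and 0.392 to 0.779 CPM in WT.

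KAT8, the catalytic subunit (ENSG00000103510, chr16:31115754-31131393, hg38), was abundant in 5 of the 6 libraries and low in 1. Its level was 166, 196 and 236 CPM (counts per 1e6 library-scaled counts) in R98W replicates 1, 2 and 3. In the WT group it was 12.2, 195 and 184 CPM in the libraries labelled WT replicates 1, 2 and 3. The library labelled WT replicate 1 thus stood far below the other 5, which overlapped between the groups. Its value came from 1214 KAT8 counts, against 16326 to 24864 counts in the R98W libraries and 22417 and 17480 in WT replicates 2 and 3. The 95% exact Poisson interval of the low value, for counting error only, was 11.5 to 12.9 CPM. In bulk RNA, fewer cells with a high KAT8 level and less KAT8 RNA per cell cannot be told apart.

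Ranked within each library, KAT8 lay above 94.1% to 96.2% of the tested genes in R98W. It lay above 95.9% and 95.5% of them in WT replicates 2 and 3 and above 56.5% in the library labelled WT replicate 1. The R98W libraries also differed among themselves, with a coefficient of variation of 17.5% for KAT8, against 2.69% for MSL1, 8.59% for MSL2 and 2.76% for MSL3. Reads of the introduced and the chromosomal KAT8 gene cannot be separated in these counts.

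**Figure D1:**
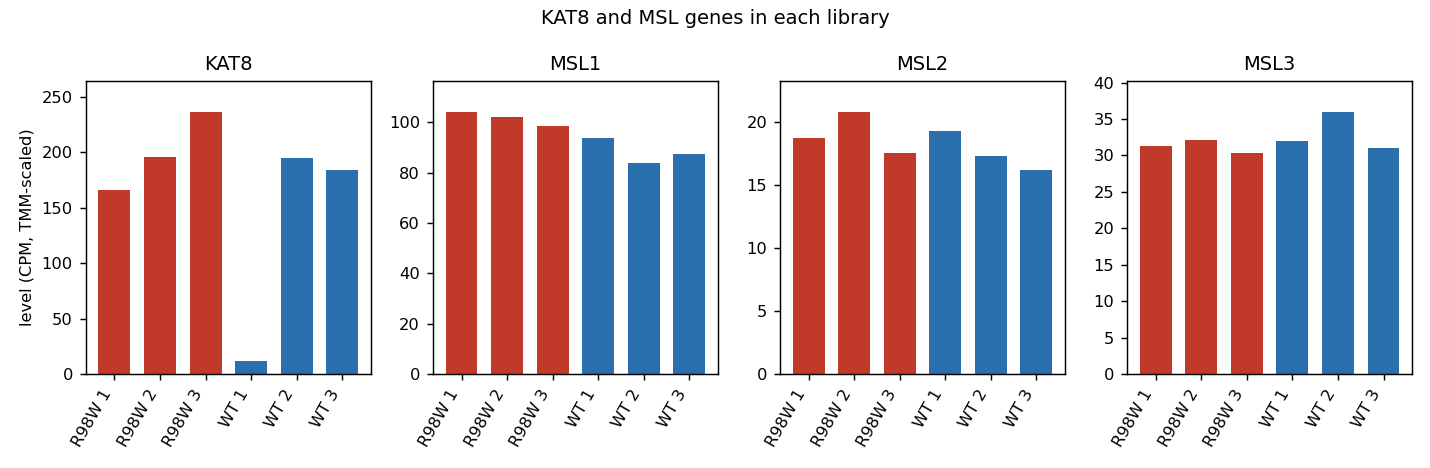
Level of each gene in each library, in TMM-scaled CPM from 0, with the 3 R98W libraries left (red) of the 3 WT libraries (blue). KAT8 stands at 12.2 CPM in the library labelled WT replicate 1 and at 166 to 236 CPM in the other 5, while MSL1, MSL2 and MSL3 keep within narrow ranges.

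The mean KAT8 level was 199 ± 34.8 CPM in R98W and 130 ± 103 CPM in WT (SD, n = 3 each). The log2 fold change of R98W over WT was 0.61 (SE 0.48), with a 95% interval of -0.40 to 1.62, and did not pass the threshold (edgeR quasi-likelihood test with Benjamini-Hochberg adjustment, adjusted p = 0.362). When the fit omitted the library labelled WT replicate 1, it was 0.06 (adjusted p = 0.687 by edgeR, SE 0.10), with an interval of -0.15 to 0.28. In that fit a KAT8 level in R98W between 0.901 and 1.21 times that of WT lay within the interval. The omitted library was singled out by its KAT8 level, so that fit describes the remaining libraries and is not a test of KAT8. In the fit of all 6 libraries, KAT8 had the largest residual spread of the 20713 tested genes, at rank 1. MSL1, MSL2 and MSL3 ranked 17170, 9896 and 14480. The low KAT8 value was known beforehand, so the rank of KAT8 describes the data and is not a test. The KAT8 fold change also moved with the method, to 1.37 by limma-voom (adjusted p = 0.0853). It passed the threshold in 2 of 15 alternatives. With no filter on low counts it stayed at 0.61, but with an SE of 0.07 in place of 0.48 (edgeR adjusted p = 6.72e-16). With a replicate block it was 1.22 (SE 0.29, edgeR adjusted p = 0.000788), although the labels do not say that same-numbered libraries were paired. The KAT8 counts, which overlapped between the groups, were the same in these fits, so neither p-value is read as a group difference.

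MSL1, the scaffold (ENSG00000188895, chr17:40122298-40136916), was slightly higher in R98W. It stood at 104, 102 and 98.8 CPM in R98W replicates 1, 2 and 3. In WT it stood at 93.7, 83.8 and 87.6 CPM in the same order. Every R98W library was above every WT library, with the library labelled WT replicate 1 the highest of its group. The means were 102 ± 2.74 CPM in R98W and 88.4 ± 4.98 CPM in WT (SD, n = 3 each). The log2 fold change was 0.20 (adjusted p = 0.0232 by edgeR, SE 0.07), a rise of 1.15 times with an interval of 1.04 to 1.27. When the fit omitted the library labelled WT replicate 1, it was 0.23 (adjusted p = 0.0121 by edgeR, SE 0.07).

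The MSL1 call was a narrow one. Over all tested genes 34.8% were called, 16.2% as higher and 18.5% as lower in R98W, and the groups did not overlap in 45.6%, so 1 called gene among the 4 subunits is no more than the background share. When the fit omitted the library labelled WT replicate 1, MSL1 was again the 1 called subunit, while 33.6% of all genes were called, 15.2% as higher and 18.4% as lower. Among the 901 tested genes within 0.25 log2 units of the mean level of MSL1, 32.5% were called higher and the median log2 fold change was 0.0936. After a correction for the trend with expression level, an alternative added once the data had been seen, the log2 fold change of MSL1 was 0.11 and its call ended (edgeR adjusted p = 0.212). The call also ended when R98W replicate 1 or 2 or WT replicate 2 or 3 was left out, at edgeR adjusted p of 0.0949, 0.0737, 0.0811 and 0.0939. Mitochondrial ribosomal RNA, a measure of library makeup, took 1.47% to 1.57% of counts in R98W and 0.905% to 1.04% in WT, and its part in the MSL1 difference was not tested.

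MSL2, the ubiquitin ligase subunit (ENSG00000174579, chr3:136148922-136197241), did not separate the groups. It had 18.8, 20.8 and 17.6 CPM in R98W replicates 1, 2 and 3. The libraries labelled WT replicates 1, 2 and 3 had 19.3, 17.3 and 16.2 CPM. The groups overlapped, with means of 19.1 ± 1.64 CPM in R98W and 17.6 ± 1.56 CPM in WT (SD, n = 3 each). The log2 fold change of 0.11 (SE 0.09) did not pass the threshold (edgeR adjusted p = 0.379). Its interval, -0.08 to 0.30, spans folds of 0.947 to 1.23. Omitting the library labelled WT replicate 1 gave 0.17 (adjusted p = 0.184 by edgeR).

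MSL3, the chromo barrel subunit (ENSG00000005302, chrX:11758159-11775772), also overlapped between the groups. Its level was 31.3, 32.1 and 30.3 CPM in R98W replicates 1, 2 and 3. Its level in the libraries labelled WT replicates 1, 2 and 3 was 32.0, 35.9 and 31.0 CPM, with replicate 2 the highest of the 6 libraries. The means were 31.2 ± 0.861 CPM in R98W and 33.0 ± 2.57 CPM in WT (SD, n = 3 each). The log2 fold change was -0.08 (adjusted p = 0.470 by edgeR, SE 0.08), and its interval spans folds of 0.848 to 1.06. Omitting the library labelled WT replicate 1 gave -0.11 (adjusted p = 0.337 by edgeR). The intervals of MSL2 and MSL3 do not exclude a change as large as that of MSL1, a rise for MSL2 and a fall for MSL3.

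**Figure D2:**
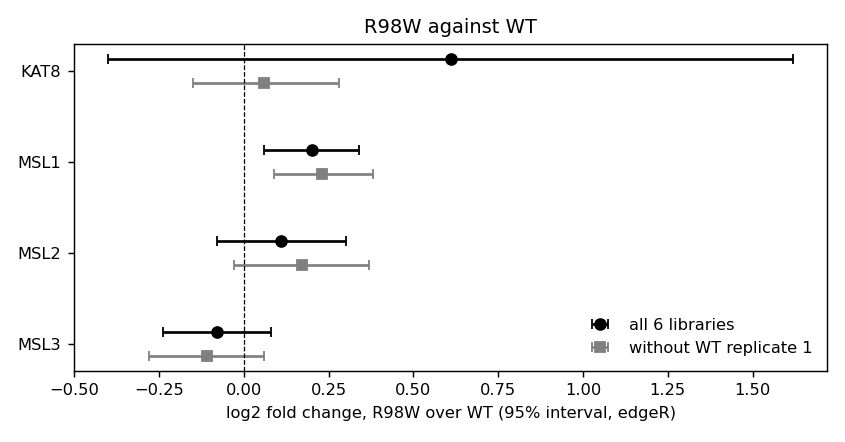
Log2 fold change of R98W over WT with its 95% interval from edgeR, for all 6 libraries (black circles) and without the library labelled WT replicate 1 (grey squares). The interval of KAT8 narrows from -0.40 to 1.62 down to -0.15 to 0.28, while those of MSL1, MSL2 and MSL3 hardly move. The library was left out for its low KAT8 level, so the narrowing at KAT8 follows from that choice.

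The low KAT8 value was not shared by the other subunits. Set against the mean of WT replicates 2 and 3 on the log2 CPM scale, the library labelled WT replicate 1 differed by -3.96 for KAT8, a fold of 0.0645. The same difference was 0.13 for MSL1, 0.20 for MSL2 and -0.06 for MSL3. Among 12159 protein-coding genes averaging at least 1 CPM, the median absolute difference of that library was 0.111 and the 95th percentile was 0.369, so the MSL genes lay inside the usual range. KAT8 ranked 1 of the 12159, and 9 genes in all differed by more than 1 log2 unit. The low KAT8 value was known when the subunits were chosen, so its rank is a description and not a test. After KAT8, the lowest were DHRS13 at -1.19 and C6orf52 at -1.14, and the highest were GPR37L1 at 1.08, CXCL14 at 1.07 and FOXL1 at 0.89.

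**Figure D3:**
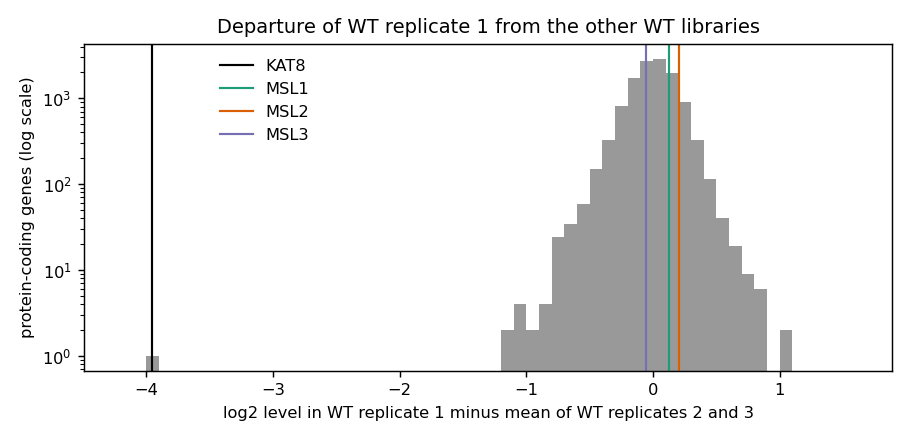
Number of protein-coding genes (log scale) by the log2 level in the library labelled WT replicate 1 minus the mean of WT replicates 2 and 3, with vertical lines for KAT8 and the MSL genes. KAT8 lies alone at -3.96, while MSL1, MSL2 and MSL3 lie within the bulk at 0.13, 0.20 and -0.06. The low KAT8 value was known before the subunits were chosen, so its place is a description.

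The library labelled WT replicate 1 was also set against both group means over genes called without it. Of the 7141 such genes that were also tested in the fit of all 6 libraries, 78.5% lay nearer in that library to the mean of the other WT libraries than to the R98W mean. The same measure, made with each other library left out in turn, gave 90%, 92.4% and 90% for R98W replicates 1, 2 and 3, and 89% and 95% for WT replicates 2 and 3. Those shares rest on other gene sets, of 5366 to 6330 genes, so the 6 shares are not like for like. The low-KAT8 library lay with its labelled group for most of its 7141 genes, with the lowest share of the 6. Its KAT8 level was far below that of the other libraries labelled as overexpressing. With no library without overexpression analysed, whether it overexpressed KAT8 was not tested. The fold change of each subunit and the counts of the functional gene lists are given with and without that library.

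The chromosomal neighbourhood of KAT8 did not share the low value. Of the 9 tested genes reported at or within 50 kb of KAT8, none differed by more than 0.66 log2 units in the library labelled WT replicate 1 from the mean of the other WT libraries. AC135050.6, an annotated transcript on the same strand within an intron of KAT8, shares no exon with it. It had 3.21, 2.70 and 2.70 CPM in R98W replicates 1, 2 and 3. The libraries labelled WT replicates 1, 2 and 3 had 3.07, 3.56 and 3.4 CPM, so the low-KAT8 library did not stand apart for this intronic transcript. AC135050.5, also intronic, held 25, 33 and 22 counts in R98W replicates 1, 2 and 3 and 23, 19 and 11 counts in WT replicates 1, 2 and 3.

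BCKDK, the kinase of branched-chain ketoacid dehydrogenase, lies 2963 bp from KAT8 and was lower in R98W. It had 25.5, 28.7 and 25.4 CPM in R98W replicates 1, 2 and 3, and 29.4, 32.9 and 32.4 CPM in WT replicates 1, 2 and 3. Its log2 fold change was -0.25 (adjusted p = 0.0179 by edgeR, SE 0.08). The zinc finger gene ZNF646 had -0.31 (adjusted p = 0.0066 by edgeR, SE 0.08). The other 7 did not pass the threshold: ZNF668, PRSS53, VKORC1, AC135050.5, AC135050.6, PRSS36 and AC009088.4. The lower calls of BCKDK and ZNF646 stand beside 18.5% of all tested genes called lower and 34.8% called in either direction. They do not set the neighbourhood apart. VKORC1, which encodes the vitamin K epoxide reductase, averaged 7.86 CPM in R98W and 8.10 CPM in WT.

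**Figure D4:**
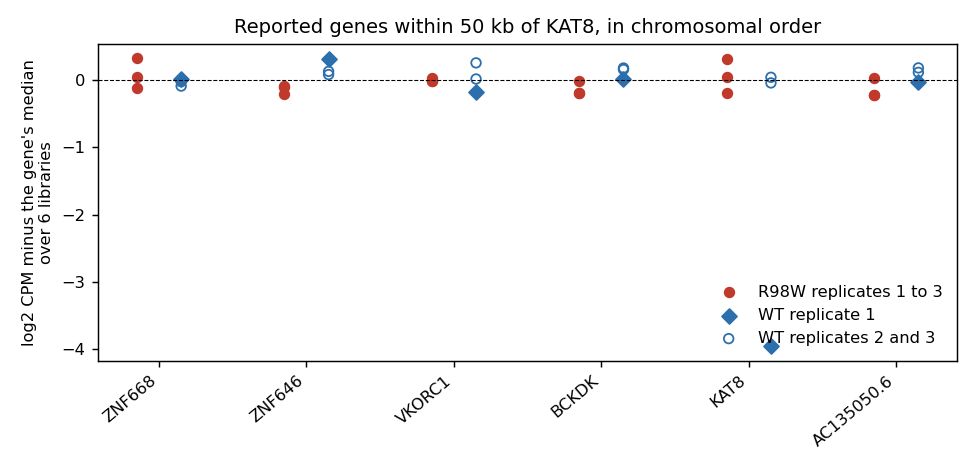
Log2 CPM of each library minus the gene's median over 6 libraries, for KAT8 and the reported genes within 50 kb that average at least 1 CPM, in chromosomal order, with R98W (red) left of WT (blue). The diamond of WT replicate 1 is far below the rest at KAT8 and among the other points at ZNF668, BCKDK and AC135050.6. It is the highest point at ZNF646 (28.3 CPM) and the lowest at VKORC1 (6.95 CPM).

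Levels were compared between the subunits per kilobase of length, with TMM-scaled CPM as the numerator. Over the union of annotated exons, the R98W libraries had 38.4, 45.3 and 54.4 CPM per kb of KAT8 and 13.4 to 14.1 CPM per kb of MSL1. MSL2 had 3.45 to 4.08 and MSL3 3.10 to 3.28 CPM per kb in R98W. In WT, MSL1 had 11.3 to 12.7, MSL2 3.19 to 3.79 and MSL3 3.17 to 3.67 CPM per kb. KAT8 had 2.81 CPM per kb in the library labelled WT replicate 1, and 45 and 42.5 in WT replicates 2 and 3. By this measure KAT8 was the most abundant subunit RNA in 5 libraries and the least abundant in 1.

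The order of MSL2 and MSL3, and the place of KAT8 in the low library, depend on the length used. The exon union is 9780 bases for MSL3, which has 50 annotated transcripts, and 5095 for MSL2, whereas the principal transcripts are 2364 and 4692 bases long. Per kb of principal transcript, MSL3 was at 12.8 to 13.6 CPM in R98W and 13.1 to 15.2 CPM in WT, above MSL2 at 3.74 to 4.43 CPM in R98W and 3.46 to 4.12 CPM in WT. KAT8 was at 8 CPM per kb of principal transcript in the library labelled WT replicate 1, below MSL1 at 19.9 and MSL3 at 13.5 and above MSL2 at 4.12 in the same library, so that KAT8 was the least abundant there only by the exon union. The length of the introduced KAT8 transcript is not given in the sources used here, so its level per length is approximate.

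The ratio of KAT8 to MSL1 per kb of exon union was 2.72, 3.29 and 4.07 in R98W replicates 1, 2 and 3. It was 0.222, 3.97 and 3.59 in the libraries labelled WT replicates 1, 2 and 3. Without the low library the ranges overlapped. The ratio of MSL1 to MSL3 was 4.40, 4.20 and 4.30 in R98W replicates 1, 2 and 3, and 3.87, 3.09 and 3.73 in WT replicates 1, 2 and 3. These ranges did not overlap, and this ratio was looked at after the levels were seen, so it is given as a description. MSL3P1, a processed pseudogene of MSL3 on chromosome 2, had 0.313 to 0.499 CPM in R98W and 0.274 to 0.496 CPM in WT, and reads could be split between it and MSL3.

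The genes most like each subunit were ranked by Pearson r among 12158 others, and with 6 libraries in 2 groups a high r is easily reached. By log2 CPM over the 6 libraries, METAP2, a methionine aminopeptidase, was most like KAT8 at r = 0.9925, followed by FTCDNL1 at 0.9868 and SLC35A1 at 0.9627. METAP2 had 188, 188 and 189 CPM in R98W replicates 1, 2 and 3, and 170, 190 and 188 CPM in WT replicates 1, 2 and 3. This likeness rested on the library labelled WT replicate 1: over the other 5 libraries the leading genes were SPATA6L at 0.9897, PREB at 0.9845 and WDR5, a subunit of the NSL complex, at 0.9781. MSL1 was most like ACBD5 (0.9979), TPPP (0.9974) and the lysine methyltransferase gene SETD7 (0.9972), each of which was called higher in R98W, with log2 fold changes of 0.46, 0.58 and 0.20. MSL2 was most like SMPDL3A (0.9899), PTPRG (0.9811) and HYAL1 (0.9802). MSL3 was most like MTFR1L (0.9983), TAF8 (0.9744) and TBC1D8 (0.9724).

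Genes linked to the MSL complex by function were drawn from lists written from textbook knowledge, with earlier results of these data known. The shares called in these lists are therefore descriptions. All the listed genes were protein-coding. Of the tested protein-coding genes outside the X, Y and mitochondrial chromosomes, 43.3% were called in either direction, a closer background than all tested genes. KAT8's other complex, NSL, had 3 of 8 members higher and 1 lower in R98W, where 16.2% of all tested genes were higher and 18.5% lower. The list had a median log2 fold change of 0.0771, beside -0.00465 over all tested genes. The median of tested genes differed with level. It was 0.00811 near the mean level of MSL3, 0.0936 near MSL1 and 0.158 near KAT8, within 0.25 log2 units. The shares called there were 45.7%, 44.2% and 52.1%. The NSL median lay between these medians. OGT, the enzyme that adds O-linked N-acetylglucosamine to proteins, averaged 182 CPM in R98W and 135 CPM in WT and rose by 0.43 on the log2 scale (SE 0.06, edgeR adjusted p = 3.81e-05). KANSL2, which encodes another NSL subunit, rose by 0.33, and MCRS1 had a log2 fold change of -0.26. The same counts, 3 higher and 1 lower, were found without the library labelled WT replicate 1.

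The other MYST acetyltransferases are paralogues of KAT8 that work in separate complexes. Of the 4, 1 was lower and 0 were higher by edgeR, beside 34.8% of all tested genes called in either direction. KAT6A, KAT6B and KAT7 had log2 fold changes of -0.16, -0.12 and -0.06. KAT5, also called TIP60, had 10.8, 11.8 and 10.8 CPM in R98W replicates 1, 2 and 3, and 14.0, 13.3 and 12.5 CPM in WT replicates 1, 2 and 3. Its log2 fold change was -0.25 (adjusted p = 0.0397 by edgeR, SE 0.09). When the fit omitted the library labelled WT replicate 1, the call ended at a log2 fold change of -0.23 (edgeR adjusted p = 0.088), and 0 of the 4 genes were called.

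KAT5 and 3 further genes encode proteins with the chromo barrel fold shared by KAT8 and MSL3, and of these 4 genes 1 was higher and 1 was lower, beside 34.8% called over all tested genes. ARID4A rose to 41.6 CPM in R98W, against 34.3 CPM in WT (log2 fold change 0.28, SE 0.08, edgeR adjusted p = 0.00833). MORF4L1 and ARID4B had log2 fold changes of 0.15 and 0.18 and missed the threshold (edgeR adjusted p of 0.055 and 0.0648). Without the library labelled WT replicate 1, 2 of the 4 were higher, ARID4A and ARID4B, and 0 were lower, beside 33.6% called over all genes in that fit. DHX9, the human counterpart of the fly helicase MLE, averaged 414 CPM in R98W and 413 CPM in WT.

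Enzymes and readers of H4K16 acetylation and of H4K20 methylation changed in 1 of 8 cases, a share of 12.5%, below the 34.8% over all tested genes. HDAC2, a class I deacetylase, rose by 0.19 on the log2 scale (SE 0.06, edgeR adjusted p = 0.0230), and that call ended, leaving 0 of the 8 called, when the fit omitted the library labelled WT replicate 1, at a log2 fold change of 0.17 (edgeR adjusted p = 0.0555). The other 7, among them the H4K16 deacetylase genes SIRT1 and SIRT2, did not pass the threshold, and these names were picked after their values were seen.

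Genes of H2B ubiquitination were listed because MSL2 is known to ubiquitinate that histone. Of these 6, 5 were called, beside 34.8% over all tested genes and 43.3% over protein-coding genes outside the X, Y and mitochondrial chromosomes. RNF20 and RNF40, which form the main H2B ubiquitin ligase, were lower in R98W. RNF20 averaged 78.7 CPM in R98W and 100 CPM in WT, which is -0.35 on the log2 scale (SE 0.07, edgeR adjusted p = 0.000873), and RNF40 had -0.25. The conjugating enzyme genes went the other way: UBE2B averaged 53.9 CPM in R98W and 40.5 CPM in WT, a rise of 0.41 (SE 0.07, edgeR adjusted p = 0.000234), and UBE2A rose by 0.33. WAC, an RNF20 and RNF40 partner, rose by 0.19, while the deubiquitinase gene USP22 had 0.06 and did not pass the threshold. With 3 higher and 2 lower, the median log2 fold change of the list was 0.124. It stands beside 0.0936 and 0.158 among tested genes near the mean levels of MSL1 and KAT8. Omitting the library labelled WT replicate 1 gave the same counts of higher and lower genes.

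**Figure D5:**
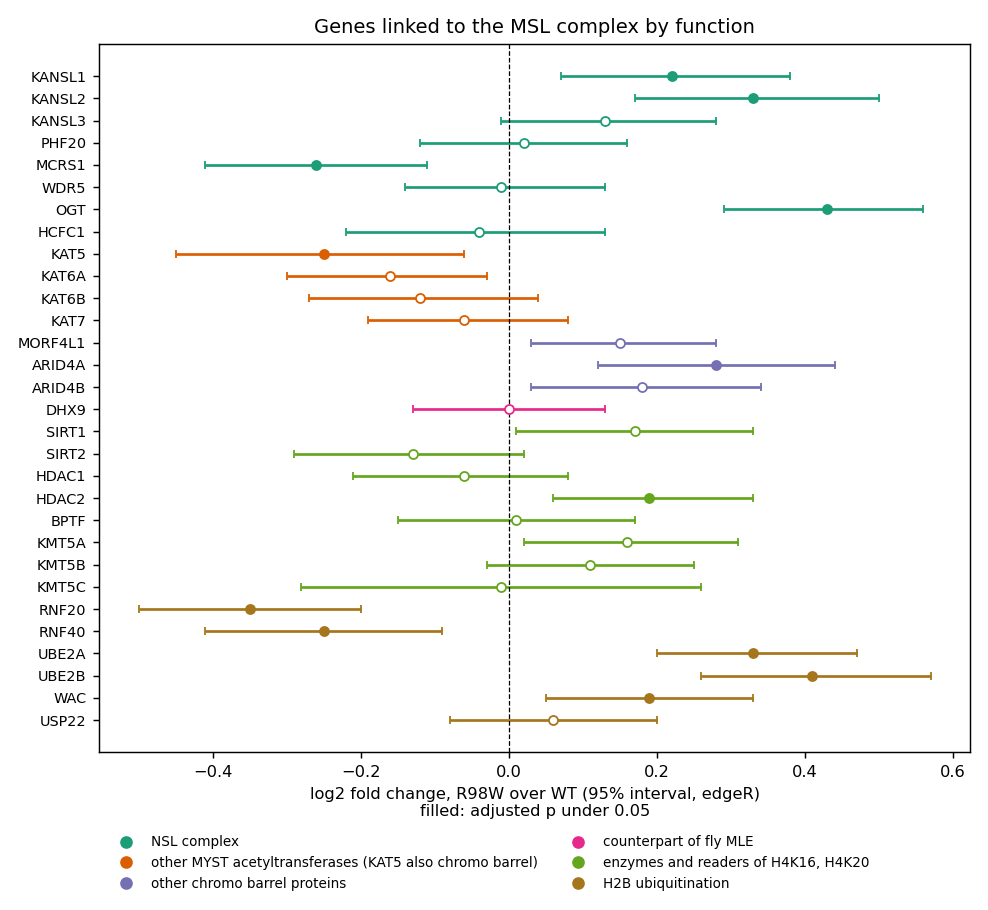
Log2 fold change of R98W over WT with its 95% interval from edgeR for genes linked to the MSL complex by function, coloured by list and filled where the adjusted p was under 0.05. OGT (0.43) and UBE2B (0.41) lie furthest right and RNF20 (-0.35) furthest left.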

How the data were processed

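The authors deposited raw counts of reads for each gene, in 1 column per library. Per the submitters' processing notes, CASAVA 1.8, HISAT2 2.1.0, HTSeq 0.11.3 and build hg38 were used. The sources used here do not give their roles, the annotation or the strand setting. All 58721 identifiers matched GENCODE release 29, which gave symbols, positions, lengths and the KAT8 codon. Counts were tested with edgeR 4.0.16 (R 4.3.3): filterByExpr (minimum count 10, total 15), TMM, and quasi-likelihood tests of R98W against WT over 6 libraries, adjusted by Benjamini-Hochberg with a threshold of 0.05. Log2 CPM used a prior count of 2. Library totals ran from 90007121 to 110152936, and the biological coefficient of variation was 10.0%. For the simulated comparison of R98W with WT, 20193 genes were tested and 48 or 49 were changed at each fold. Of these, 22.4% of genes changed 1.25-fold, 56.2% changed 1.5-fold, 66.7% changed 2-fold and 95.8% changed 4-fold were recovered, with 5 false calls. Far fewer genes were changed in the simulation than were called in the data (7203), so these rates do not give the power for the subunits.

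The subunits and gene lists were chosen with earlier results of these data known. Named genes were the 4 subunits, all members of lists of 6 or fewer and the 3 called members with the smallest p of longer lists, tested genes within 50 kb of KAT8 (1 is not reported here), overlapping genes and pseudogenes, the 3 most similar genes by Pearson r, and the 3 extremes at each end in the library labelled WT replicate 1. Genes named outside this rule are given as such. Alternatives were other scalings, filters, limma-voom 3.58.1, DESeq2 1.42.0, KAT8 left out, a replicate block, each library left out and lowess corrections.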

Additional observations from a re-analysis of the deposited data

How the results depend on the processing

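The number of genes called (7203) ran from 5400 to 7532 over 16 alternatives, always within 1.5 times. Over 15 alternatives KAT8 had log2 fold changes of 0.06 to 1.37, with adjusted p from 6.72e-16 to 0.701 by edgeR, DESeq2 or limma-voom. It passed the threshold in 2. With no filter on low counts it had 0.61 (SE 0.07, edgeR adjusted p = 6.72e-16), and with a replicate block 1.22 (SE 0.29, edgeR adjusted p = 0.000788). The SE of the main fit was 0.48, and the cause of the smaller SEs was not tested. With each library left out in turn the log2 fold change of KAT8 ran from 0.06 to 1.01. The MSL1 log2 fold change ran from 0.15 to 0.23 with each library left out and was 0.11 after the lowess correction for expression level. Its call ended in 5 of 16 alternatives, and over all 16 its adjusted p ran from 0.0058 to 0.212. MSL2 (0.05 to 0.17) and MSL3 (-0.13 to -0.02) passed the threshold in 0 of 16 edgeR, DESeq2 and limma-voom alternatives, with unadjusted p of 0.236 and 0.317 by edgeR in all libraries and adjusted p from 0.184 to 0.797 and from 0.309 to 0.863.

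Deviations of same-numbered libraries correlated at 0.01, -0.04 and -0.04, and 1 of 6 libraries correlated best with its own number. No pairing by number showed in these values, which cannot tell whether same-numbered libraries were prepared together. The labels do not say. The replicate block called 6883 genes. Depth limited none of the 4 subunits, whose smallest count was 1214.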

Other observations

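Because the fly complex acts on the X chromosome, protein-coding genes of chromosome X were counted, a list added after the data were seen. Of 501 tested, 100 were higher and 125 lower in R98W, or 44.9%, beside 43.3% of 13893 protein-coding genes on other chromosomes. Their median log2 fold changes were -0.0248 and -0.00469. Omitting the library labelled WT replicate 1 gave 95 X-linked genes higher and 134 lower, and 2744 higher and 3263 lower on other chromosomes.

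SDAD1, a nucleolar protein gene named after its values were seen, had 28.9, 102 and 31.4 CPM in R98W replicates 1, 2 and 3, and 26.3, 29.8 and 29.2 CPM in WT replicates 1, 2 and 3.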
